A study of Homo sapiens with 6 samples.

Results

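The forkhead transcription factor genes were examined in 6 libraries whose labels name PANC-1, an established human line of pancreatic ductal carcinoma. Members were all genes of the count table whose symbol is FOX, a subfamily letter from A to S and a number, with an optional final A, B or L form and without antisense genes. The rule matched 51 of 60623 genes, 49 of them protein-coding and 2 pseudogenes, in 19 subfamilies. RNA sequencing compared 3 libraries labelled as PANC-1 with a hairpin RNA directed at STN1, which encodes a telomere-binding protein subunit, with 3 labelled as PANC-1 with a control hairpin. The titles give shSTN1 for each library of the first group, whereas the genotype field reads STN1, STN2 and STN3 knockdown for replicates 1, 2 and 3. Control libraries carry the genotype WT and also hold a hairpin. All cells were grown in DMEM with serum. The column headers call the hairpins Sh4 and scramble, and the labels do not say whether the cells were pools or clones. They call the libraries biological replicates without describing separate cultures, so p-values measure the spread between libraries, which may be technical in part.

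Forkhead proteins bind DNA through a shared winged-helix domain, and the letter in each name marks a subfamily. FOXA proteins open closed chromatin in gut endoderm, and FOXA2 acts early in pancreas development. FOXO proteins carry the response to insulin and stress, since AKT kinases phosphorylate them and keep them out of the nucleus. FOXM1 drives genes of mitosis, and many FOXC, FOXD, FOXF and FOXL genes serve mesoderm, neural crest or gut mesenchyme.

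Upstream sequence is shown first for the 3 members that lie side by side on chromosome 6, because they differed between the groups in different directions and amounts. These are the 250 bases before the RefSeq start in GRCh38.p14, plus strand, 5′ to 3′, with CpG dinucleotides in capitals. FOXQ1 is chr6:1311848-1312097, FOXF2 is chr6:1389326-1389575 and FOXC1 is chr6:1609665-1609914.
FOXQ1: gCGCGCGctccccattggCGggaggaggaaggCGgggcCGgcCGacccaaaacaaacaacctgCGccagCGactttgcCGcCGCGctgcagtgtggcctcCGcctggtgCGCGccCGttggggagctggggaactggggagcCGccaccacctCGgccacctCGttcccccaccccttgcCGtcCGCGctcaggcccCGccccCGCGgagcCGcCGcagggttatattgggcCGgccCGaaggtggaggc
FOXF2: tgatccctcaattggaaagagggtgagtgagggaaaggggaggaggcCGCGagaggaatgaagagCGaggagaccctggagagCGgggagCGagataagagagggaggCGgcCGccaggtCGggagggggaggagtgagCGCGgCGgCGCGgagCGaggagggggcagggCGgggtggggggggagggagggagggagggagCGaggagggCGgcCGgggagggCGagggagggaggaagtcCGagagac
FOXC1: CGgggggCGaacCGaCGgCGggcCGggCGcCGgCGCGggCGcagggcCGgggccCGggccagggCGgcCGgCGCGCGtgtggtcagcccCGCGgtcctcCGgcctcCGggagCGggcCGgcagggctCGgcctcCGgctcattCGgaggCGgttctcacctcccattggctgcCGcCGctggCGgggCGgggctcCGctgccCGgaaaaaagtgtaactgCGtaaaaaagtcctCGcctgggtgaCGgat

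The windows hold 29 CpG in FOXQ1, 20 in FOXF2 and 37 in FOXC1, against a median of 11 over 35116 windows of the same length before gene starts. A window was found for 39 forkhead genes, some with several starts, which gave 50 windows with a median of 19.5 CpG. The median was 29 for 9 windows from 7 members higher in the shSTN1 libraries, with a range of 8 to 44. It was 24 for 29 windows from 20 members lower there, with a range of 0 to 42. Genes with several starts count more than once, and a difference by direction was not tested. The forkhead motif TGTTTAC, searched on both strands, occurred in 1 of the 50 windows (2.00%), at FOXP1, and in 2.98% of all windows.

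Total counts were 17357223 to 23336942 reads per library. Reads of STN1, the targeted gene, numbered 387, 346 and 278 in control and 303, 306 and 275 in shSTN1, and the groups overlapped. Its log2 fold change was -0.15 (edgeR adjusted p = 0.253), and an exact two-sided permutation test gave p = 0.3, where the smallest possible is 0.1. The level of STN1 thus gives no check of the labels, and each direction below is between libraries as they are labelled. CDKN2A, which PANC-1 is known to lack, had 3968, 3882 and 3903 reads in the libraries labelled control and 0 in each labelled shSTN1. The control reads of this gene go against the PANC-1 label, and control and shSTN1 below mean libraries so labelled. Of 12 ductal carcinoma markers 7 were tested and all 7 were higher in shSTN1. Among all 17451 genes tested, 35.6% were called higher and 38.5% lower at an edgeR adjusted p under 0.05. Summed levels of the carcinoma markers were 979 to 1018 reads per 1000000 (CPM) in control and 5740 to 5910 CPM in shSTN1. Of 10 markers seen in embryonic kidney lines 7 were lower, 1 was higher and 2 did not pass (80% called, all genes 74.1%). Their summed levels were 685 to 786 CPM in control and 106 to 111 CPM in shSTN1. IRS4 of that list stood at 330 ± 42.6 CPM in control, a large part of the sum, and had 3 reads in shSTN1. SALL1 and HMX1 had 0 reads in shSTN1. PAX2 of the same list went the other way, from 24.2 to 62.4 CPM (log2 fold change 1.37). WT1 (-0.01) and LHX1 (0.27) did not pass. A difference in cells between the groups and an effect of the hairpin cannot be told apart in this design, which holds for every result on forkhead genes.

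Markers of other cell types were summed in the same way. Endothelial markers reached 1.19 to 2.19 CPM in control and 1.93 to 2.49 CPM in shSTN1, with PECAM1 at 0 reads. Leukocyte markers reached 4.44 to 5.48 and 1.42 to 1.76 CPM, with CD3E at 0 reads. Pancreatic endocrine markers reached 11.6 to 16.2 CPM in control and 0.0567 to 0.536 CPM in shSTN1, where INSM1 had 0 reads, and INS and GCG had 0 reads throughout. Fibroblast markers reached 73.3 to 88.4 and 169 to 183 CPM, led by COL1A1 at 46.6 ± 3.15 and 124 ± 6.89 CPM. Of 7 in that list 4 were tested, with 3 higher (all genes 35.6%) and 1 not past the threshold. The untested ones were near absent, with COL1A2 at 1 read in control and 2 in shSTN1, DCN at 6 and 0, and LUM at 30 and 2. Their part in the forkhead results was not tested.

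Of the 51 forkhead genes 39 had enough reads to be tested. Of these, 36 passed the edgeR adjusted p of 0.05, where 74.1% of all 17451 genes tested did. The forkhead calls were 13 higher in the shSTN1 libraries (all genes 35.6%) and 23 lower (all genes 38.5%). At least 2-fold differences were called for 7 members that were higher (all genes 15.7%) and 18 that were lower (all genes 19.0%). The median log2 fold change was -0.77 over the tested members and -0.03 over all genes, and the median size regardless of sign was 1.84 against 0.68. Neither member median moved when values without reads in a group were set to their bound. Groups did not overlap for 34 of the 39 members, against 75.6% of all genes tested. In bulk RNA, fewer cells with a transcript and less transcript per cell cannot be told apart.

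**Figure D1:**
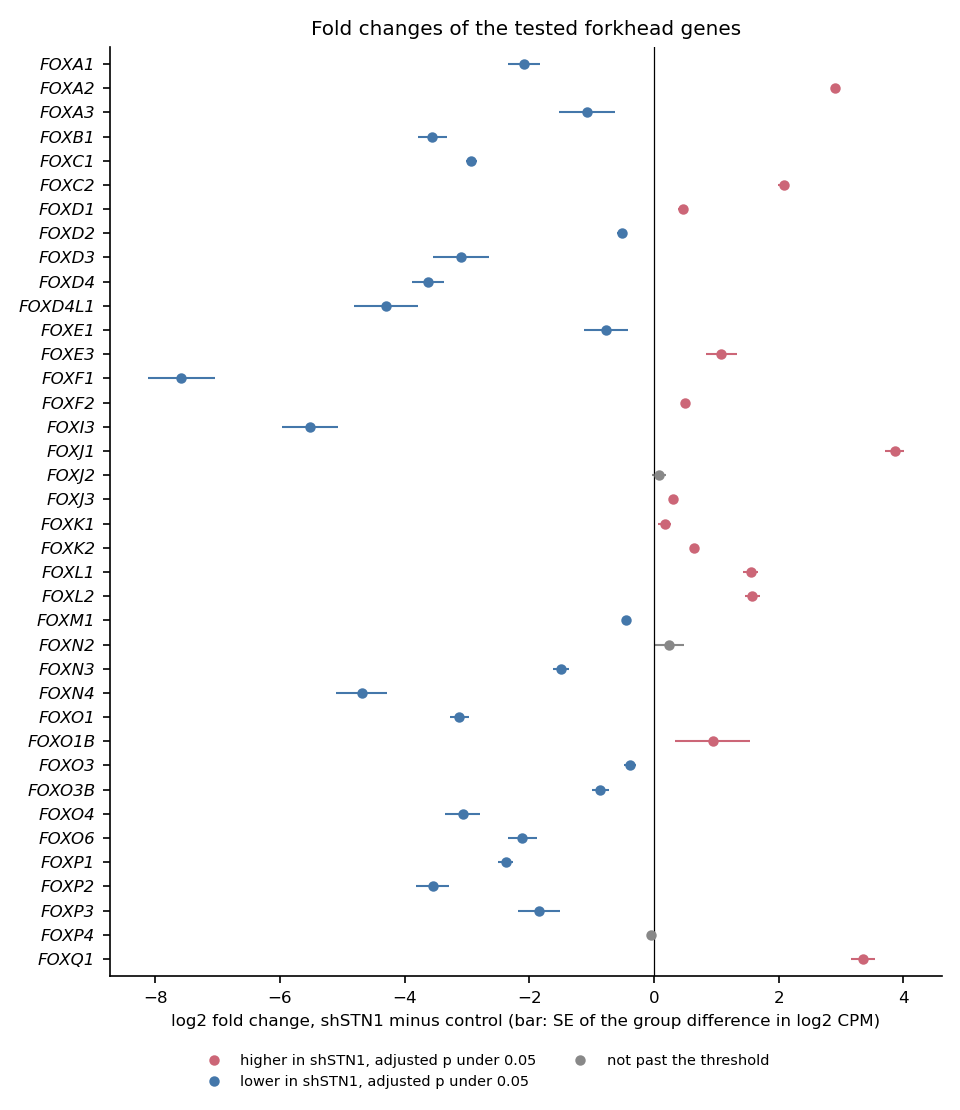
Log2 fold change (horizontal axis, shSTN1 minus control) of 38 tested forkhead genes with reads in both groups, by subfamily; points are edgeR estimates and bars the SE of the group difference in mean log2 CPM. Of those drawn, 22 lie to the left of 0 past the threshold, 13 to the right, and 3 are grey.

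Per length of exon, the forkhead genes together held 980, 1094 and 1007 transcripts per 1000000 (TPM) in control and 885, 872 and 891 TPM in shSTN1. In control the order of mean levels was FOXC1 (172 ± 16.6 TPM, SD, n = 3 here and below), FOXM1 (120 ± 4.79), FOXF2 (86.6 ± 3.94), FOXD1 (78.6 ± 4.53) and FOXK2 (60.1 ± 2.46). FOXF2 and FOXD1 lay within their SDs of each other. In shSTN1 the order was FOXA2 (145 ± 3.05 TPM), FOXQ1 (123 ± 7.87), FOXF2 (95.4 ± 3.39), FOXD1 (85.0 ± 5.65) and FOXK2 (73.0 ± 0.853), and FOXM1 followed at 69.1 ± 3.41. FOXA2 stood in place 13 in control and FOXQ1 in place 18, whereas FOXC1 stood in place 13 in shSTN1. At 1 CPM or more on average were 35 members in control and 29 in shSTN1, of which 27 were shared. FOXP1 and FOXP2 have long merged exon models, which lower their TPM. TPM and CPM are scaled differently. FOXP4 stood at 46 TPM in control and 35 TPM in shSTN1, but at 75.7 and 73.8 CPM. TPM totals and levels are thus not compared between the groups. TPM serves here to order genes within a group, and all tests and fold changes below are on CPM.

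**Figure D2:**
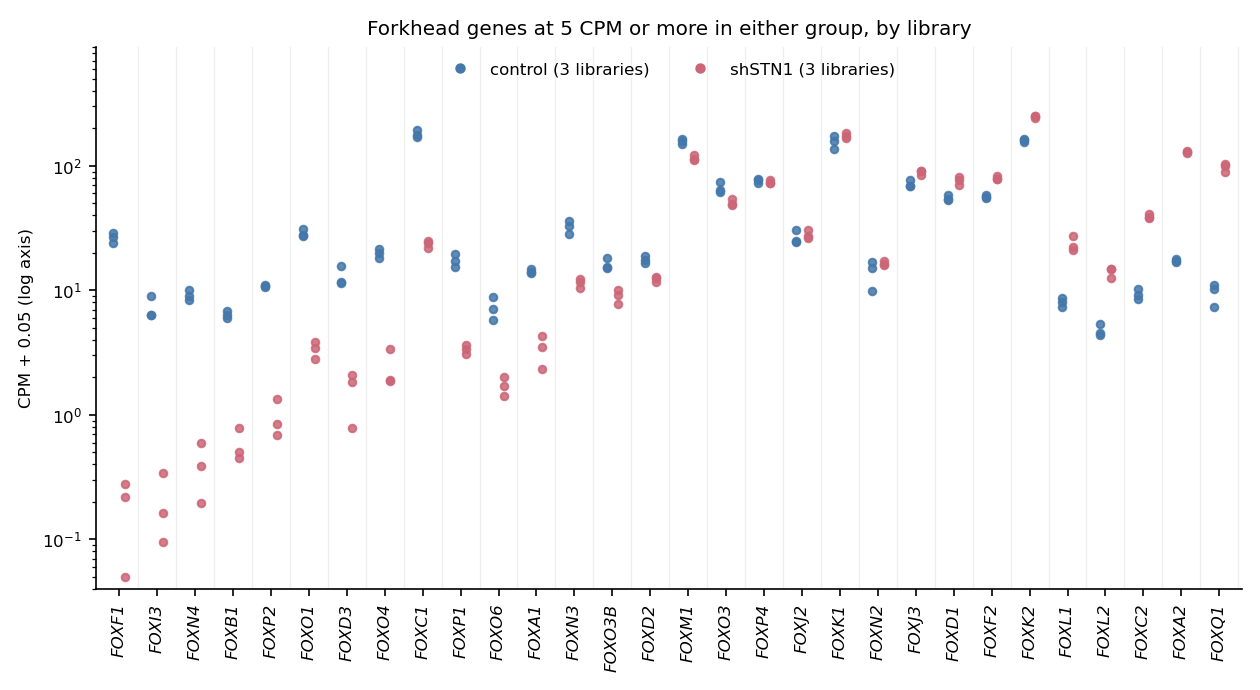
CPM + 0.05 on a log axis (vertical) in each library for 30 tested forkhead genes at 5 CPM or more in either group and with reads in both, ordered by fold change; blue points are control and red points shSTN1 libraries. The groups are apart for all but FOXP4, FOXJ2, FOXK1 and FOXN2.

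The endodermal FOXA genes moved in opposite directions. FOXA2 (chromosome 20, positions 22581005 to 22585455 in GRCh38) had 17.2, 16.8 and 17.7 CPM in control and 128, 127 and 131 CPM in shSTN1, in the order of replicates 1 to 3 here and below. Its libraries agreed closely within each group and the difference was 7.49-fold (edgeR log2 fold change 2.90, SE 0.0269, adjusted p = 3.64e-25). FOXA1, a pioneer factor that often binds the same sites, had 14.1, 14.8 and 13.7 CPM in control and 4.24, 3.43 and 2.27 CPM in shSTN1. It fell 4.29-fold (edgeR log2 fold change -2.09, SE 0.259, adjusted p = 4.71e-13) with no overlap. FOXA3, the least abundant of them, fell from 2.47 ± 0.631 to 1.18 ± 0.51 CPM (log2 fold change -1.08, edgeR adjusted p = 0.00295). Per length, FOXA2 made up 58.5 ± 0.277% of FOXA transcripts in control and 97.3 ± 0.583% in shSTN1, while the FOXA1 share went from 31.6 ± 2.11% to 1.64 ± 0.5%.

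A list of 24 genes set beside FOXA factors of gut endoderm held both regulators and epithelial products. Of these 15 were tested, with 7 higher, 6 lower and 2 not past the threshold (86.7% called, all genes 74.1%, with 35.6% higher and 38.5% lower). Their median difference was 0.07 on the log2 scale. AGR2, a secretory pathway protein of mucous epithelia, rose from 62.2 ± 4.29 to 292 ± 9.5 CPM (log2 fold change 2.23). The homeobox factor ONECUT3 rose from 13.9 ± 0.286 to 80.4 ± 3.99 CPM (2.53), whereas its relative ONECUT2 fell from 26.2 ± 2.22 to 1.83 ± 0.587 CPM (-3.82). The epithelial ETS factor ELF3 rose from 13.2 ± 1.24 to 58.1 ± 3.6 CPM (2.14). The edgeR adjusted p of these 4 lay between 6.08e-24 and 2.80e-19. EHF and TFF2 had no reads in any library, and TFF3 none in control.

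Of 6 FOXO genes, 2 of them pseudogenes, 5 were lower (all genes 38.5%), among them the pseudogene FOXO3B, whose value is uncertain. FOXO1 (chromosome 13, positions 40469953 to 40666597), a main nuclear effector of low insulin signalling, had 27.7, 31.3 and 27.2 CPM in control and 3.8, 2.74 and 3.4 CPM in shSTN1. The groups were far apart, an 8.66-fold fall (edgeR log2 fold change -3.12, SE 0.148, adjusted p = 9.54e-20). FOXO4 behaved alike in size, with 21.3, 20 and 18.3 CPM in control and 3.36, 1.83 and 1.87 CPM in shSTN1. In edgeR it stood at -3.07 on the log2 scale (SE 0.284, adjusted p = 4.92e-17). FOXO6, a member best known from brain, had 7.01, 5.72 and 8.87 CPM against 1.37, 1.65 and 1.98 CPM (edgeR log2 fold change -2.11, SE 0.233, adjusted p = 1.72e-10).

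FOXO3, the most abundant FOXO gene, moved least among them. It had 61.1, 74.2 and 63.6 CPM in control and 48.5, 49.5 and 54.0 CPM in shSTN1, a small difference without overlap (edgeR log2 fold change -0.39, SE 0.0978, adjusted p = 1.06e-04). Its share of FOXO1, FOXO3, FOXO4 and FOXO6 transcripts per length was 39.0 ± 2.76% in control and 77.5 ± 2.67% in shSTN1. FOXO3B, annotated as a pseudogene copy of FOXO3 on chromosome 17, had 15.4, 18.0 and 15.1 CPM against 7.66, 10.0 and 9.12 CPM (edgeR log2 fold change -0.86, SE 0.138, adjusted p = 5.76e-07). Of its stretches of 100 bases, 45.8% also occur in FOXO3 transcripts, so reads of this pair may be split or lost in counting, and the FOXO3B value is uncertain. FOXO1B, a pseudogene of FOXO1, had 7, 28 and 7 control reads and 39, 22 and 17 shSTN1 reads. Its groups overlapped, and the call of higher (log2 fold change 0.94, edgeR adjusted p = 0.0489) was lost without control replicate 1 (0.61, edgeR adjusted p = 0.25), control replicate 3 (0.67, 0.224) or shSTN1 replicate 1 (0.56, 0.322), and was 1.83 without control replicate 2. It was also lost by DESeq2 (adjusted p = 0.0986), without a low-count filter (0.0552) and with upper-quartile factors (0.0544).

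**Figure D3:**
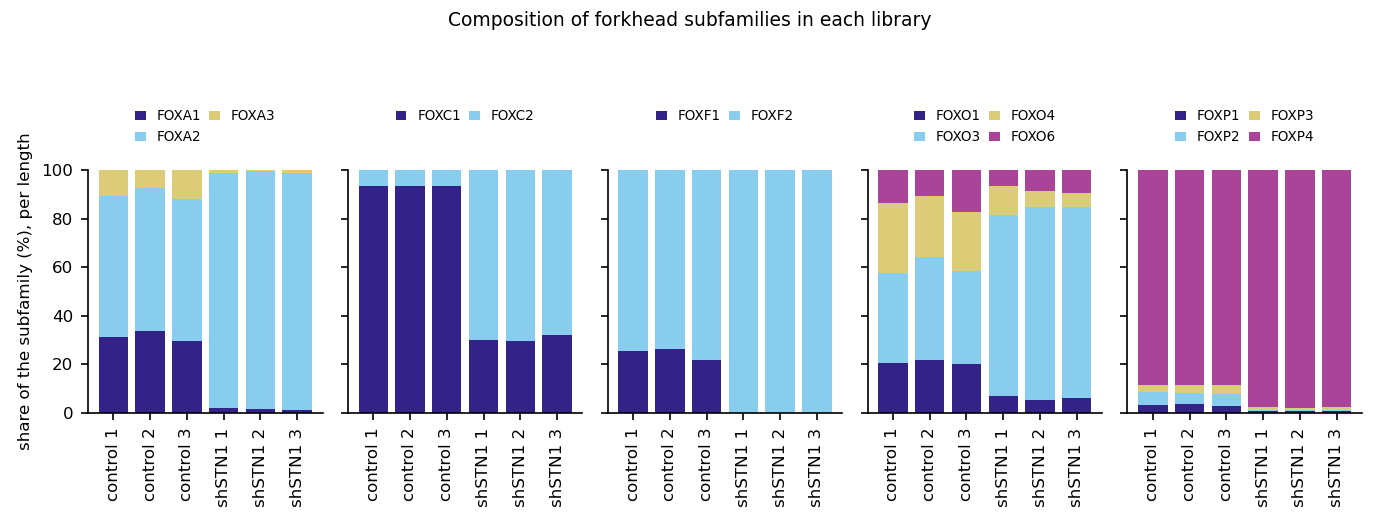
Share in percent (vertical axis) of each protein-coding member in the summed TPM of its subfamily, 1 bar per library, for FOXA, FOXC, FOXF, FOXO and FOXP. FOXA2 goes from 58.5% to 97.3% of FOXA on average, FOXC2 from 6.55% to 69.4% of FOXC, and FOXO3 from 39.0% to 77.5% of the FOXO genes shown.

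Regulators of FOXO were tested for all 22 genes listed, with 11 higher, 5 lower, 6 not past the threshold (72.7% called, all genes 74.1%) and a median of 0.26 on the log2 scale. The kinase gene AKT2 rose from 958 ± 26.2 to 3965 ± 70.0 CPM (log2 fold change 2.05). INSR, the insulin receptor, fell from 38.7 ± 2.51 to 8.87 ± 1.08 CPM (-2.13). SKP2, a ubiquitin ligase subunit that targets FOXO1, fell from 116 ± 7.98 to 27.2 ± 1.97 CPM (-2.09). Their edgeR adjusted p lay between 5.95e-24 and 8.58e-18. Among 24 genes known as FOXO targets 20 were tested, with 6 higher, 11 lower, 3 not past the threshold (85.0% called, all genes 74.1%) and a median of -0.40. SESN3, a sestrin that restrains mTORC1, fell from 22.0 ± 1.45 to 1.25 ± 0.214 CPM (-4.15), and TXNIP, an inhibitor of glucose uptake, from 43.4 ± 3.59 to 4.19 ± 0.638 CPM (-3.38). CAT, which encodes catalase, rose from 56.0 ± 1.22 to 135 ± 4.65 CPM (1.27), and the stress gene GADD45A from 55.9 ± 0.131 to 120 ± 2.84 CPM (1.10). The edgeR adjusted p of these 4 was at most 1.91e-15.

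On chromosome 6 FOXQ1, FOXF2 and FOXC1 lie side by side, with gaps of 74.8 kb and 214 kb. FOXQ1 (positions 1312440 to 1314748), a factor found in epithelia and carcinomas, had 7.3, 10.9 and 10.3 CPM in control and 103, 98.8 and 89.7 CPM in shSTN1. Every shSTN1 library was far above every control library, a 10.2-fold rise (edgeR log2 fold change 3.35, SE 0.188, adjusted p = 1.94e-23). FOXF2 (positions 1389576 to 1395603), a factor of gut mesenchyme, had 54.8, 56.5 and 58.8 CPM against 78.7, 78.0 and 82.7 CPM (edgeR log2 fold change 0.49, SE 0.0395, adjusted p = 5.01e-07). FOXC1 (positions 1609972 to 1613897), which acts in neural crest, eye and vessel development, had 176, 195 and 169 CPM against 23.9, 21.7 and 25.0 CPM. It was the most abundant member of control and fell 7.63-fold (edgeR log2 fold change -2.93, SE 0.087, adjusted p = 3.40e-25). FOXCUT, a noncoding gene 3893 bases from FOXC1, fell with it, from 629 to 51 reads (log2 fold change -3.56). The upstream sequences printed above belong to these genes.

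The second group, on chromosome 16, holds FOXF1, FOXC2 and FOXL1 with gaps of 51.4 kb and 6.64 kb. FOXF1 (positions 86510527 to 86515418), needed for lung and gut mesenchyme, had 27, 29 and 23.8 CPM in control and 0, 0.229 and 0.17 CPM in shSTN1, or 1652 against 8 reads. It fell by 7.58 on the log2 scale (SE 0.542, edgeR adjusted p = 1.09e-22), with -8.29 without shSTN1 replicate 2 or -6.99 without shSTN1 replicate 1. FENDRR, a noncoding gene 1428 bases from FOXF1, had 556 control reads and 0 shSTN1 reads, at least 180-fold lower. FOXC2 (positions 86566829 to 86569728), a factor of lymphatic vessels and mesenchyme, moved the other way, with 9.13, 10.3 and 8.49 CPM against 41.3, 38.3 and 38.9 CPM (edgeR log2 fold change 2.08, SE 0.0877, adjusted p = 6.03e-18). FOXL1 (positions 86576368 to 86582160), a marker of the mesenchyme below gut epithelium, rose as well, from 7.35, 8.57 and 8.01 to 27.1, 21.1 and 22.2 CPM (edgeR log2 fold change 1.55, SE 0.127, adjusted p = 6.27e-13). Within FOXC transcripts per length, FOXC2 held 6.55 ± 0.156% in control and 69.4 ± 1.47% in shSTN1. Within FOXF transcripts, FOXF2 held 75.3 ± 2.33% and 99.9 ± 0.105%.

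**Figure D4:**
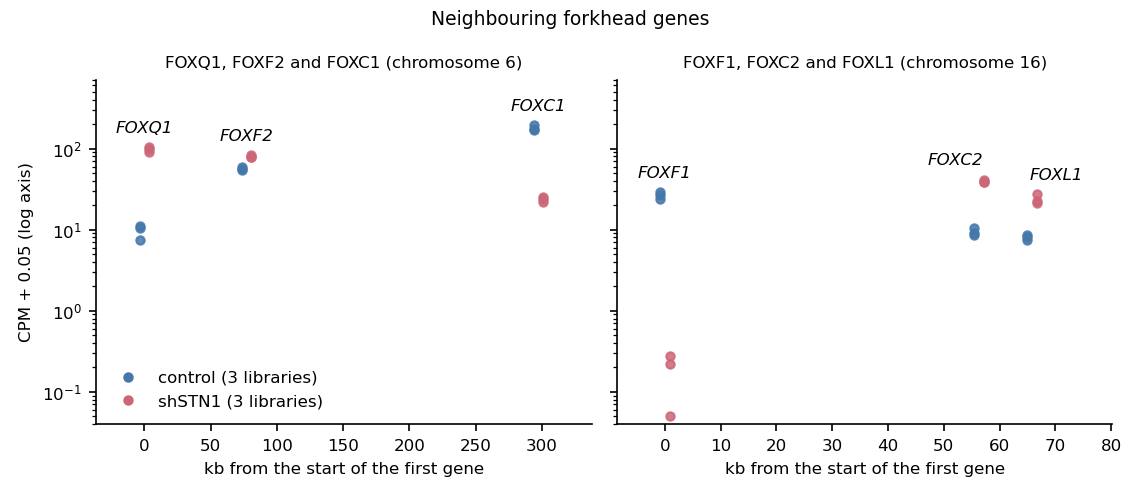
CPM + 0.05 on a log axis (vertical) against distance in kb from the start of the first gene, for the forkhead groups of chromosomes 6 and 16; each point is a library. FOXQ1 and FOXC1 change places between the groups of libraries, and FOXF1 falls from 26.6 to 0.133 CPM on average where FOXC2 and FOXL1 rise.

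FOXF1, FOXF2 and FOXL1 are known targets of hedgehog signalling in gut mesenchyme. Of 15 genes of that pathway 13 were tested and all 13 passed (all genes 74.1%), 11 lower and 2 higher, with a median of -1.82 on the log2 scale. GAS1, a coreceptor, fell from 43.7 ± 2.96 to 0.29 ± 0.149 CPM (log2 fold change -7.16), and the transcription factor GLI3 from 42.8 ± 3.97 to 2.25 ± 0.268 CPM (-4.25). The receptor gene PTCH1 fell from 37.8 ± 3.86 to 6.39 ± 0.543 CPM (-2.56) and the signal transducer SMO from 77.3 ± 4.09 to 15.6 ± 1.6 CPM (-2.31). Each of the 4 had an edgeR adjusted p of at most 2.84e-19. The 2 genes that rose, named after their values were seen, were the ligand gene SHH, from 3.9 to 27.2 CPM (2.80), and GLI1, from 14.4 to 25.3 CPM (0.81).

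Several factors of neural or ectodermal development were lower in shSTN1. The lens factor FOXE3, given below, was instead called higher, a call that some alternatives lost. FOXI3, a factor of ear and placode development, had 6.25, 8.93 and 6.27 CPM against 0.293, 0.0457 and 0.113 CPM (edgeR log2 fold change -5.52, SE 0.452, adjusted p = 1.34e-15), and -6.45 without shSTN1 replicate 1. FOXN4, a factor of retina and spinal cord, had 10.1, 8.35 and 9.03 CPM against 0.146, 0.549 and 0.34 CPM (-4.69, SE 0.415, edgeR adjusted p = 1.43e-16). FOXB1, expressed in the developing hypothalamus, had 5.96, 6.25 and 6.82 CPM against 0.731, 0.457 and 0.397 CPM (-3.56, SE 0.233, edgeR adjusted p = 6.20e-14). FOXB2 had 29 reads against 0, at least 9.4-fold lower, too few for the filter. Where another setting let it be tested it was called lower, with an edgeR adjusted p of 2.93e-05 without a low-count filter.

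Among FOXD genes the neural crest factor FOXD3 had 11.7, 11.5 and 15.5 CPM in control and 0.731, 1.78 and 2.04 CPM in shSTN1. It fell by 3.09 on the log2 scale (SE 0.45, edgeR adjusted p = 1.79e-14). FOXD3-AS1 overlaps 8.58% of its exons on the other strand and was also lower (-1.01). FOXD2 fell less, from 16.4, 17.6 and 18.9 to 12.7, 11.7 and 12.6 CPM (edgeR log2 fold change -0.52, SE 0.0689, adjusted p = 1.65e-04). FOXD1, a factor of kidney stroma, was the one FOXD gene that rose, from 52.7, 53.9 and 58.4 to 81.6, 69.9 and 76.8 CPM (edgeR log2 fold change 0.47, SE 0.0786, adjusted p = 3.40e-06).

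FOXD4 and its copies share much of their sequence. FOXD4, near the end of the short arm of chromosome 9, fell from 3.36 ± 0.907 to 0.264 ± 0.0498 CPM (log2 fold change -3.62, edgeR adjusted p = 1.50e-10). The 5 other tested genes within 1 Mb of it had a median of -1.84. FOXD4L1 had 10, 28 and 10 reads against 2, 0 and 0, a control to shSTN1 ratio of 23.3 with a 95% interval of 6.12 to 198 for counting error (edgeR adjusted p = 1.79e-05, log2 fold change -4.30, or -6.97 without shSTN1 replicate 1). FOXD4L4 had 14 reads against 2, FOXD4L3 2 against 0, FOXD4L5 1 against 0, and FOXD4L6 3 against 4. Of the stretches of 100 bases in these genes, 23.2% (FOXD4L1) to 89.8% (FOXD4L6) also occur in another forkhead gene, so the values of FOXD4 and all its copies are uncertain.

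Of 4 FOXP genes 3 were lower (all genes 38.5%) and 1 did not pass. FOXP1, a repressor widely expressed in epithelia and lymphocytes, had 17.1, 19.4 and 15.4 CPM in control and 3.32, 3.57 and 3.06 CPM in shSTN1 (edgeR log2 fold change -2.38, SE 0.116, adjusted p = 1.20e-15). FOXP2, linked to speech development, had 11, 10.6 and 10.7 CPM against 0.634, 1.28 and 0.793 CPM (edgeR log2 fold change -3.55, SE 0.27, adjusted p = 3.73e-16). The groups stood apart for both. FOXP3, the master factor of regulatory T cells, was near 1 CPM in control (1.22 ± 0.232) and 0.342 ± 0.141 CPM in shSTN1 (log2 fold change -1.84, edgeR adjusted p = 3.59e-04). FOXP4 did not pass, with 72.4, 78.4 and 76.4 CPM against 72.4, 76.3 and 72.7 CPM (log2 fold change -0.04, edgeR adjusted p = 0.653). The limma-voom 95% interval of its log2 difference was -0.18 to 0.11. FOXP4 was the most abundant FOXP gene in CPM and per length, with 88.5 ± 0.133% of FOXP TPM in control and 97.7 ± 0.285% in shSTN1. These shares depend on merged exon models of 36714 bases for FOXP1 and 16152 for FOXP2, against 6170 for FOXP4. The long models lower the shares of FOXP1 and FOXP2.

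FOXK proteins are broadly expressed regulators of metabolism and autophagy. FOXK2 had 164, 162 and 154 CPM in control and 251, 244 and 251 CPM in shSTN1, a 1.55-fold rise (edgeR log2 fold change 0.64, SE 0.0294, adjusted p = 6.07e-11). FOXK1 had 137, 172 and 157 CPM against 175, 168 and 182 CPM, with overlap. Its call of higher (log2 fold change 0.17, edgeR adjusted p = 0.0305) was lost without control replicate 1 (0.07, edgeR adjusted p = 0.345), control replicate 3 (0.17, 0.0619), shSTN1 replicate 1 (0.18, 0.0541) or shSTN1 replicate 3 (0.15, 0.108). DESeq2 (0.17, adjusted p = 0.0635), upper-quartile factors (0.14, 0.0812) and no low-count filter (0.14, 0.098) also lost it. Of 15 corepressor partners of FOXK and FOXP proteins, 3 were higher, 7 lower and 5 not past the threshold (66.7% called, all genes 74.1%), with a median of -0.10. ASXL1 rose (log2 fold change 1.06, 151 ± 7.85 to 315 ± 5.06 CPM), and its partner BAP1, a deubiquitinase that binds FOXK, fell (-0.91, 176 ± 11.2 to 93.6 ± 2.88 CPM). GATAD2A (-0.71) and GATAD2B (-0.89), subunits of the NuRD complex, fell too. The edgeR adjusted p of these 4 was at most 2.12e-11.

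FOXM1, which peaks in dividing cells, had 163, 158 and 151 CPM in control and 114, 111 and 122 CPM in shSTN1. It fell 1.36-fold without overlap (edgeR log2 fold change -0.45, SE 0.0509, adjusted p = 3.32e-07). ITFG2 overlaps 15.9% of its exons on the other strand and stood at -0.03. All 24 listed targets and partners of FOXM1 were tested, with 10 higher, 8 lower, 6 not past the threshold (75.0% called, all genes 74.1%) and a median of -0.01. CENPA, the centromeric histone, rose from 23.6 ± 0.829 to 53.0 ± 1.62 CPM (log2 fold change 1.17), CCNB1, cyclin B1, from 191 ± 13.8 to 380 ± 17.7 CPM (0.99), and AURKA, a mitotic kinase, from 91.9 ± 1.23 to 167 ± 9.92 CPM (0.86). LIN9, a subunit of the MuvB complex that works with FOXM1, fell from 30.2 ± 0.855 to 11 ± 1.38 CPM (-1.46). The edgeR adjusted p of these 4 was at most 3.31e-13.

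FOXJ1, the master factor of motile cilia, had 4, 4 and 3 control reads and 44, 63 and 53 shSTN1 reads. It rose from 0.178 ± 0.015 to 2.68 ± 0.464 CPM, 15.1-fold (edgeR log2 fold change 3.86, SE 0.154, adjusted p = 4.36e-10). That SE is of log2 CPM with a prior count of 2 and does not show how uncertain a level from 11 control reads is. Of 19 matched genes of the motile cilium programme 15 were tested, with 5 higher, 7 lower, 3 not past the threshold (80.0% called, all genes 74.1%) and a median of -0.17. The axonemal dynein DNAH5 rose from 2.78 ± 0.143 to 10.6 ± 1.36 CPM (log2 fold change 1.93, edgeR adjusted p = 4.49e-12). MCIDAS, which acts upstream of FOXJ1, fell from 4.88 ± 1.03 to 1.71 ± 0.42 CPM (-1.50), and RFX3, a ciliary gene regulator, from 9.22 ± 1.03 to 4.12 ± 0.794 CPM (-1.17), both with an edgeR adjusted p of at most 9.01e-07. TEKT2, a tektin, had 51 reads against 1, a ratio of 49.6 with a 95% interval of 8.51 to 1998.

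The other FOXJ genes are broadly expressed. FOXJ3 rose slightly, from 69.2, 77.2 and 69.3 to 84.4, 91.2 and 90.1 CPM (edgeR log2 fold change 0.30, SE 0.0626, adjusted p = 5.18e-04). FOXJ2 had 24.6, 30.5 and 24.7 CPM against 30.6, 26.5 and 27.5 CPM and did not pass (log2 fold change 0.08, edgeR adjusted p = 0.472, limma-voom 95% interval -0.12 to 0.29).

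FOXN3 and FOXN2 are widely expressed. FOXN3, a checkpoint repressor, had 32.7, 35.9 and 28.1 CPM in control and 10.4, 12.4 and 11.6 CPM in shSTN1 (edgeR log2 fold change -1.49, SE 0.127, adjusted p = 1.47e-13). FOXN2 had 15.0, 16.8 and 9.84 CPM against 16, 16.3 and 17.1 CPM, where control replicate 3 stood below the others. It did not pass (log2 fold change 0.24, edgeR adjusted p = 0.118, limma-voom 95% interval -0.03 to 0.55), and it did without control replicate 2 (0.39, edgeR adjusted p = 0.0208), while it was 0.04 without control replicate 3.

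FOXL2, the ovarian granulosa cell factor, had 4.32, 4.51 and 5.35 CPM in control and 14.9, 12.5 and 14.8 CPM in shSTN1, a 2.98-fold rise (edgeR log2 fold change 1.58, SE 0.123, adjusted p = 1.89e-11). FOXL2NB, whose gene starts 94 bases away, rose with it (log2 fold change 1.62). FOXE1, the thyroid factor, fell from 4.34 ± 0.178 to 2.5 ± 1.14 CPM (log2 fold change -0.77, edgeR adjusted p = 0.00392), with shSTN1 replicate 2 nearest to control at 3.8 CPM, and it stood at -1.22 without that library. FOXE3, a lens factor 18 kb from FOXD2, rose from 0.471 ± 0.117 to 0.999 ± 0.236 CPM (log2 fold change 1.08, edgeR adjusted p = 0.0215). That call was lost without control replicate 1 (0.87, edgeR adjusted p = 0.105) or shSTN1 replicate 1 (0.87, 0.117), by DESeq2 (1.08, adjusted p = 0.0575) and without a low-count filter (1.05, 0.0582).

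The remaining members had too few reads for a test. FOXI1 had 3 reads over control and 22 over shSTN1, 17 of them in replicate 3, and it was called higher without a low-count filter (edgeR adjusted p = 0.0174). FOXH1, the nodal pathway factor, had 14 and 24 reads, with 31.6% of its exons overlapped by KIFC2 on the other strand. FOXR1 had 5 and 11 reads, and FOXS1 had 1 and 2. FOXI2, FOXN1 and FOXR2 had no read in any library. Of 14 genes of the nodal pathway 8 were tested, with 2 higher, 3 lower and 3 not past the threshold (62.5% called, all genes 74.1%). The receptor gene ACVR2B fell from 65.8 ± 6.56 to 7.55 ± 0.4 CPM (log2 fold change -3.13). SMAD3 rose from 208 ± 13.7 to 701 ± 24.6 CPM (1.75) and SMAD2 from 40 ± 0.586 to 67.9 ± 4.89 CPM (0.76). The edgeR adjusted p of these 3 was at most 4.72e-10.

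Forkhead genes were set beside the other tested genes within 1 Mb, since stretches of chromosome can shift together. Of the 36 members called, 20 had a neighbour median of the same sign, 14 of the opposite sign and 2 at 0.00. Of 25 members past 2-fold, 23 had a neighbour median within 2-fold. FOXD4, with a neighbour median of -1.84, was among the exceptions. These counts were not made for all genes, whose own median was -0.03, and a median over many genes tends to lie near that. Members close together also share neighbours. The counts are thus no result about forkhead genes as a set. FOXA2 had 7 neighbours with a median of 0.10, FOXO1 had 15 with -0.53, FOXO4 had 19 with 0.08, and FOXC1 had 7 with 0.17. Within 5 Mb these medians were -0.25 (FOXA2), -0.73 (FOXO1), -0.08 (FOXO4) and 0.17 (FOXC1). Other members that fell had lower neighbours within 1 Mb. FOXA1 had 5 with a median of -0.86, FOXP1 5 with -0.79, FOXE1 25 with -0.79 and FOXD3 11 with -0.63. FOXF1, FOXC2 and FOXL1 share 17 neighbours with a median of -0.58, 11 of them lower and 1 higher. FOXK2 had 67 neighbours with a median of 0.56 and FOXK1 15 with 0.51, close to their own fold changes or above them.

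**Figure D5:**
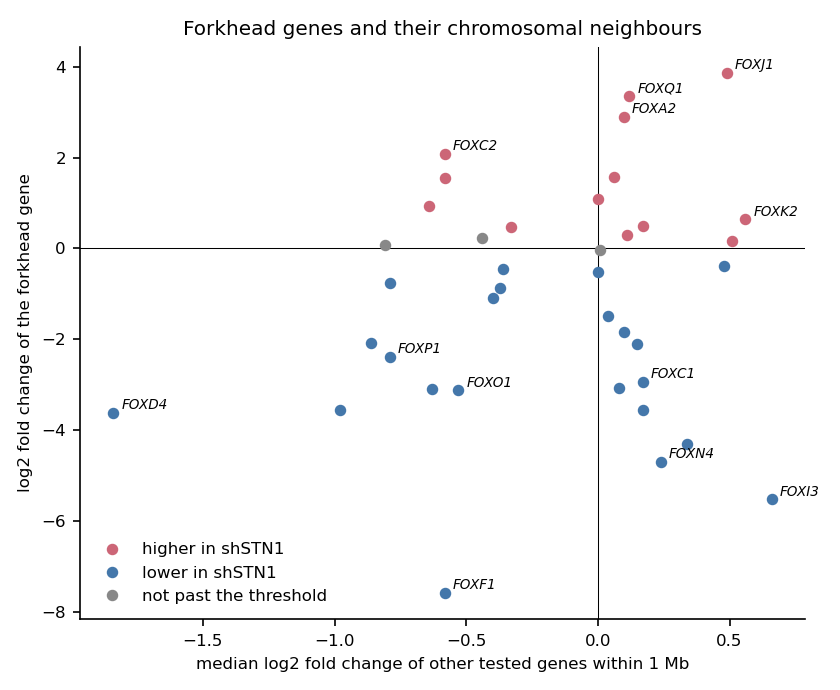
Log2 fold change of 38 tested forkhead genes with reads in both groups (vertical axis) against the median log2 fold change of the other tested genes within 1 Mb (horizontal axis). The neighbour medians shown lie between -1.84 (FOXD4) and 0.66 (FOXI3), and the members between -7.58 (FOXF1) and 3.86 (FOXJ1). Medians over several genes spread less than single genes.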

How the data were processed

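The authors deposited raw counts, whole-number reads per gene, for 6 libraries. The build was GRCh38, and the tools listed per the submitters' processing notes are STAR 2.7.2b, featureCounts 2.0.1, cutadapt and FastQC. Annotation release: not given in the sources used here. The same holds for the strand setting, so a gene and its antisense partner cannot be told apart where exons overlap. Of 60668 rows, 45 second copies of pseudoautosomal genes were left out. Gene names are those of the count table, and positions and merged exon lengths came from GENCODE 29 by identifier.

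Counts of all genes were fitted with edgeR 4.0.16 in R 4.3.3 (filterByExpr, TMM factors, robust quasi-likelihood test, shSTN1 minus control, no covariates), with Benjamini-Hochberg adjustment over 17451 genes and a threshold of 0.05. CPM used TMM-scaled totals, and SEs are of the group difference in log2 CPM (prior count 2), which narrows them where reads are few. TPM was computed from the counts and exon lengths. Intervals of STN1 and of members that did not pass came from limma-voom (limma 3.58.1). Bounds used a floor of 3 reads over a group, and 95% exact intervals of a ratio apply to 1 to 3 reads. Both cover counting error only. Replicate pairs had chi-square values of 2.88 to 8.06 per degree of freedom, above sampling noise. The labels name no batch.

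The 8 pathway lists and 6 marker lists, like the members, were chosen with earlier results of these data known. CCDC39 was not matched. Members are named with the CPM of each library for tested members at 5 CPM or more in the higher group. From each pathway list the 4 tested genes with the smallest adjusted p are named. A few members and list genes that these rules name are not reported here, and the counts include them. Alternatives were DESeq2 1.42.0 and limma-voom as tools, upper-quartile or RLE factors, no filter or at least 1 CPM in 3 libraries, a fit on protein-coding genes, a replicate block, a threshold of 0.01, and each library left out. Upstream sequences are from RefSeq (GRCh38.p14). Shared sequence was counted as stretches of 100 bases found in transcripts of another member.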

Additional observations from a re-analysis of the deposited data

How the results depend on the processing

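Over the alternatives other than leaving out a library, 33 to 36 forkhead genes passed, 10 to 13 higher and 22 to 24 lower, and all genes numbered 10981 to 13901. Without 1 library in turn, 34 to 37 forkhead genes passed, 10 to 14 higher and 23 to 24 lower. The same gave 12586 to 12857 genes in all and an STN1 log2 fold change of -0.22 to -0.06. Among the 39 members tested, the calls that changed were those of FOXE3, FOXO1B, FOXK1 and FOXN2, given beside each gene. FOXB2, below the filter, was tested and called lower without a low-count filter and without control replicate 1 or any 1 shSTN1 library (adjusted p 2.93e-05 to 3.57e-04), and FOXI1 was called higher without the filter. Of 541 values of single forkhead genes under an alternative, 523 kept direction and side of the threshold, 17 lost the call, 1 gained it and 0 reversed. Pathway lists stayed within 1.5 times their counts under the alternatives run. The median of all genes moved by at most 0.03 on the log2 scale under another scaling. Libraries with the same replicate number had deviations from their group means with correlations of -0.0123, 0.0171 and -0.0337, which gives no pairing by number. With the replicate block 36 forkhead genes passed, 13 higher and 23 lower, and STN1 stood at -0.15. Depth limits the members with few reads, for which a difference was not detectable unless large.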
